A study of Danio rerio with 32 samples.

Results

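Muscle α-actins and the proteins of the Z-disc were followed through differentiation of zebrafish muscle cells in culture. Every probe set whose annotated gene symbol, current or earlier, was acta1a, actc1a, actc1b, actn2b, actn3b, ldb3a, ldb3b or flncb was taken. These were 15 probe sets of 8 genes, out of 15617 probe sets of 8793 genes on the array. actc1b had 8 probe sets, of which 4 are control probe sets of the array that lie along its transcript, and each of the other genes had 1. Probe sets of 1 gene measure the same transcript and are not independent of each other. Muscle actin copies of a genome are close in sequence, and whether a probe set of 1 copy also bound another copy was not tested.

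RNA of mononuclear myogenic cells from adult dorsal muscle was hybridized to 32 Affymetrix Zebrafish Genome Arrays at days 0 and 1, at day 4, at day 7, and at days 10 and 14 of culture. All cells were expanded in Promocell growth medium and differentiated in Promocell medium with 2% horse serum, and each cell preparation pooled 15 to 20 fish. Batch 1 had 12 arrays of 1 hybridization run, each from 500000 plated cells, and batch 2 had 20 arrays of 4 runs. The study's methods describe a transgenic line with a red fluorescent protein under an α-actin promoter, with cells enriched over a density gradient and by plating off adherent cells, while the labels of the arrays give no line. The study describes its arrays as made from that line, and names wild-type AB fish as used for further experiments. Of the arrays, 24 were labelled good and 8 poor. Day 0 replicate B of batch 1, labelled poor, was left out, since no other array correlated with it above 0.196. Days 0–1 then held 3 arrays in batch 1 and 6 in batch 2, day 4 held 2 and 4, day 7 held 2 and 5, and days 10–14 held 4 and 5. The study calls its A and B measurements biological duplicates for most days, but neither it nor the labels say whether they came from separate cell preparations, so what the p-values capture is the spread among these arrays, and part or all of it may be technical.

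Actin polymerizes into the thin filaments of the sarcomere, and the filaments of neighboring sarcomeres are anchored at the Z-disc. There α-actinin crosslinks them, and PDZ and LIM domain proteins such as LDB3 (ZASP, Cypher) and large crosslinkers such as filamin C bind α-actinin, actin and signaling proteins. In mammals, cardiac α-actin is made early in skeletal myogenesis and skeletal α-actin becomes the main form in mature fibers.

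The arrays differed in ways that moved with time. In batch 1 the mean signal before scaling went from 21.4–49.5 on the early arrays (days 0–1) to 122–158 on the late ones (days 10–14), and the ratio of 3′ to 5′ GAPDH control signals from 1.74–2.43 to 1.26–1.39. In batch 2 the same quantities overlapped between these groups, at 182 to 636 and 214 to 847 for the mean signal and at 3.34 to 9.72 and 2.52 to 12.0 for the ratio. The part of these quantities in the changes given here was not tested. The mean signal before scaling is the scaling target of the labels divided by the scale factor. For batch 2 that target is 1500, although the deposited mean is 500, so its level cannot be set against that of batch 1. Signals below are linear intensities after quantile normalization, and changes are differences of log2(signal + 32), which understate the change of dim genes. With the authors' scaling alone, the median change of all probe sets from days 0–1 to days 10–14 in batch 1 was -0.43 instead of 0.03, and 32.7% instead of 57.6% of the called probe sets were higher. At day 4 of batch 2 the same median was 0.40 instead of 0.09, with 70.7% instead of 48.5% higher.

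Day 4 replicate A of batch 1 stood apart by its reporter signals. The array carries control probe sets for fluorescent proteins, and the probe set for DsRed1, a red fluorescent protein, gave 57.0 on day 0 replicate A and 30.5 and 245 on the day 1 arrays of batch 1. At day 4 it gave 13.7 on replicate A and 9724 on replicate B. It gave 14212 and 21025 on the day 7 arrays and 7989 to 13899 on the 4 arrays of days 10–14. In batch 2 no array exceeded 146. Day 0 replicate B of batch 1, the array left out, gave 32360. The d2EGFP probe set gave 17573 on day 4 replicate A of batch 1 and at most 179 on every other array used. Red reporter signal was thus high on all batch 1 arrays from day 4 on except the one with green reporter signal, and low on all arrays of batch 2. Without that array, 1 of the 15 member probe sets was still called higher at day 4 of batch 1 and 0 were called from day 4 to days 10–14, as with it.

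**Figure D1:**
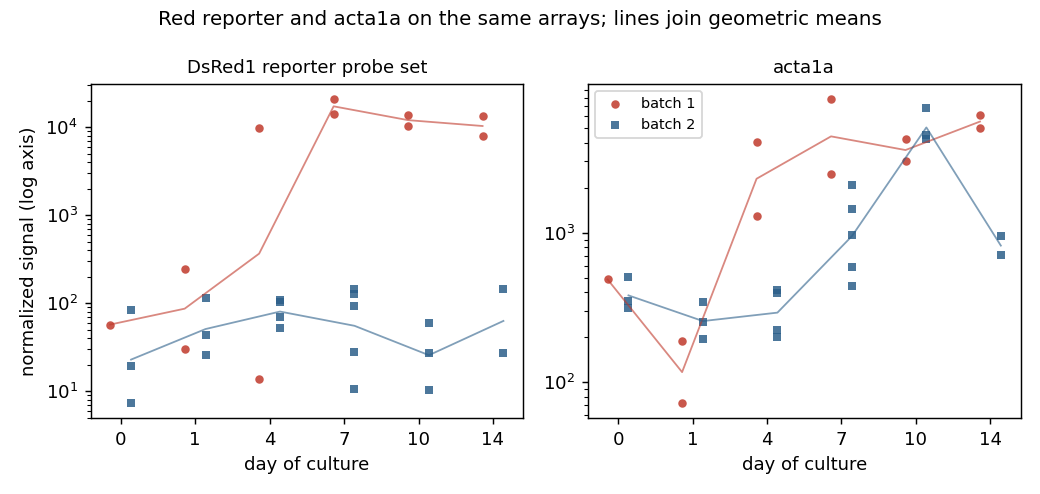
Normalized signal (log axis) of the DsRed1 reporter probe set (left) and of acta1a (right) against the day of culture, with 1 point per array, batch 1 as red circles and batch 2 as blue squares, and lines through the geometric mean of each day. The reporter was at 7989 to 21025 on the batch 1 arrays of days 7 to 14 and at most 146 in batch 2, while acta1a reached 4218 to 6814 on day 10 of batch 2 as well.

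acta1a, which encodes a skeletal muscle α-actin, rose more than any other of the 8 genes in both batches. In batch 1 its signal was 487 on day 0 and 188 and 72.7 on the day 1 arrays. It was 1303 and 4055 on day 4, 2477 and 7866 on day 7, 4240.3 and 3014 on day 10, and 6105 and 5033 on day 14. All batch 1 arrays from day 4 on were above all arrays of days 0–1. In batch 2 the 6 arrays of days 0–1 lay between 194 and 503 with a median of 331. The 4 arrays of day 4, at 200.4 to 415, lay within that range. The 5 arrays of day 7 spread from 443 to 2102. On day 10 the signals were 4218, 4519.5 and 6814, and on day 14 they were 709 and 950.5. The day 10 arrays of batch 2 were thus as bright as those of batch 1, while the day 14 arrays were not, although both stood above every array of days 0–1.

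From days 0–1 to days 10–14, acta1a rose by 4.29 ± 0.60 (SE, n = 3 and 4) on the log2 scale in batch 1, or 19.6-fold on the offset scale (limma, adjusted p = 0.00089). In batch 2 it rose by 3.00 ± 0.58 (SE, n = 6 and 5), or 8-fold (limma, adjusted p = 0.00072). Within the runs of batch 2 that held both groups, the difference was 3.76 in run 1 and 3.03 in run 3. More muscle cells and more RNA per cell cannot be told apart in such samples. In batch 1, 2 of the 15 probe sets were called higher (16.0% of all tested probe sets) and 0 lower (11.8%). In batch 2, 2 were called higher (12.9%) and 0 lower (12.1%). Over the 31 arrays, 3 were called higher (22.2%) and 0 lower (17.0%), those of acta1a, actc1a and actn2b. These shares of 15 probe sets are close to or below those of all probe sets, so the counts do not set the group apart. The shares depend on counting probe sets and not genes, since 8 of the 15 are of actc1b and none of those was called here.

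The call for acta1a came at day 4 in batch 1 and only later in batch 2. At day 4 it was 3.35 ± 0.72 (SE, n = 3 and 2) higher than on days 0–1 in batch 1 (limma, adjusted p = 0.026), the only one of the 15 probe sets called higher (3.37%), and 0 were called lower (3.11%). In batch 2 the difference was -0.11 ± 0.55 (SE, n = 6 and 4, limma, adjusted p = 0.9). Without day 4 replicate A, whose reporter signals stood apart, the batch 1 value was 4.16 (limma, adjusted p = 0.032). Without day 4 replicate B it was 2.54 (adjusted p = 0.19), and without day 1 replicate A it was 3.32 (adjusted p = 0.06), so that call rested on few arrays. A direct test of the difference between batches, added after these values were seen, gave -3.46 ± 0.98 (SE, batch 2 minus batch 1), which did not pass after adjustment over all probe sets (limma, adjusted p = 0.11). No probe set of the array passed that test (0%), and 3 of the 15 had an unadjusted p under 0.05. The share of all probe sets at that unadjusted threshold was not counted, so those 3 cannot be weighed. In batch 2 acta1a rose from day 4 to days 10–14 by 3.11 ± 0.66 (SE, limma, adjusted p = 0.011), but without day 4 replicate A or day 10 replicate A of that batch it did not pass, at 2.87 (adjusted p = 0.072) and 2.71 (adjusted p = 0.085).

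**Figure D2:**
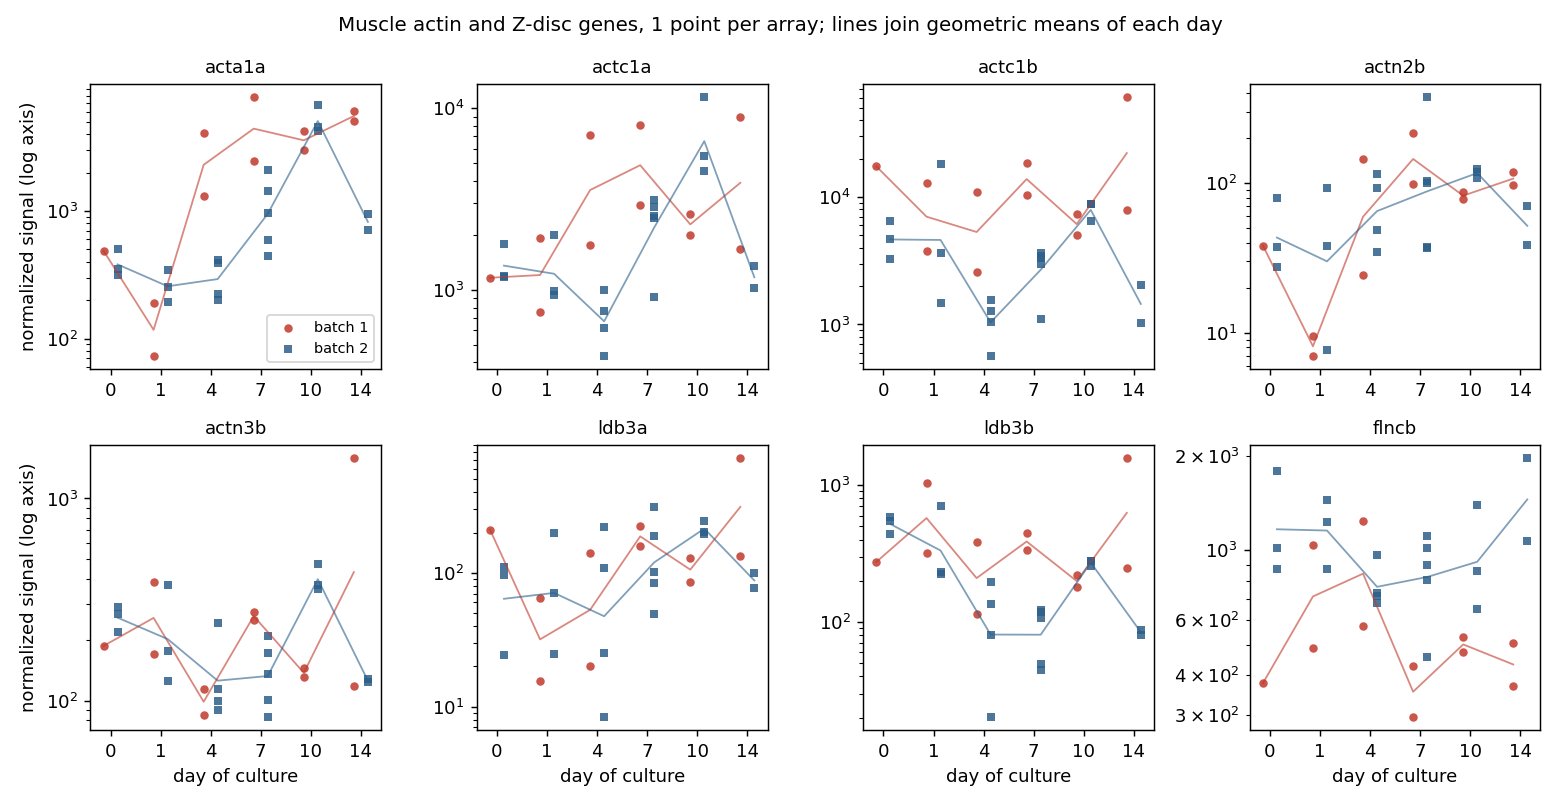
Normalized signal (log axis) of the brightest probe set of each gene against the day of culture, with 1 point per array, batch 1 as red circles and batch 2 as blue squares, and lines through the geometric mean of each day. acta1a was at 72.7 to 503 on days 0–1 and at 709 to 6814 on days 10–14 in both batches, while actc1b in batch 2 was lowest on day 4, at 564 to 1550.

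actc1a, a copy of the cardiac α-actin gene, rose by less. In batch 1 the signal was 1168 on day 0, 1942 and 753 on day 1, 1776 and 7087 on day 4, 2922 and 8081 on day 7, 2616 and 2017 on day 10, and 1690.5 and 8946 on day 14. Early and late arrays overlapped in batch 1. In batch 2 it lay between 934 and 2005 on days 0–1 (median 1189), between 433 and 998 on day 4, and between 921 and 3108 on day 7. It was 4526, 5456 and 11581 on day 10, and 1349 and 1024 on day 14. The rise to days 10–14 was 1.63 ± 0.49 (SE, limma, adjusted p = 0.019) in batch 2 and 1.30 ± 0.66 (SE, limma, adjusted p = 0.17) in batch 1, and 1.32 ± 0.46 (SE, limma, adjusted p = 0.023) over the 31 arrays. The latter call was lost without day 1 replicate B of batch 1 (1.15, adjusted p = 0.06), day 10 replicate A of batch 2 (1.25, adjusted p = 0.053) or day 10 replicate C of batch 2 (1.06, adjusted p = 0.051). The batch 2 call was lost without day 1 replicate C, at 1.51 (adjusted p = 0.064), or without day 10 replicate A, at 1.74 (adjusted p = 0.055). From day 4 to days 10–14 of batch 2, actc1a rose 5.64-fold on the offset scale (limma, adjusted p = 0.014), lost without day 4 replicate A (2.38, adjusted p = 0.08), day 4 replicate D (2.52, adjusted p = 0.07) or day 10 replicate A (2.61, adjusted p = 0.054). It and acta1a were the 2 probe sets called higher in that comparison (2.86%), and 0 were called lower (1.63%). In batch 1 no member was called between these groups in either direction (limma, 0 at an unadjusted p under 0.05), against 0.497% higher and 0.148% lower of all probe sets.

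actc1b is the other copy of the cardiac α-actin gene, carries the earlier symbol acta1, and was already bright when the cultures began. Its brightest probe set, whose suffix marks probes shared with other transcripts, gave 17393 on day 0 and 12966.5 and 3802 on day 1 of batch 1. It gave 2581 and 10973 on day 4, 10311 and 18610.3 on day 7, 5087 and 7414.5 on day 10, and 7986 and 61523 on day 14. The last of these, on day 14 replicate B, an array labelled poor, was far above the rest. In batch 2 the signal lay between 1483 and 18264 on days 0–1 (median 4157), between 564 and 1550 on day 4, and between 1106 and 3672 on day 7. It was 6449, 8768 and 8843 on day 10, and 2057 and 1022 on day 14. The change to days 10–14 was 0.30 (95% interval -1.62 to 2.21, limma, adjusted p = 0.83) in batch 1 and 0.16 (-1.01 to 1.33, limma, adjusted p = 0.87) in batch 2. These intervals do not show that actc1b stayed level. Under the authors' scaling alone the sign turned in both batches, at -0.09 and -0.06, and without day 14 replicate B the batch 1 value was -0.50.

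At day 4 of batch 2, actc1b was lower than on days 0–1. The brightest probe set fell by 2.04 ± 0.54 (SE, n = 6 and 4, limma, adjusted p = 0.012), and the difference was -2.84 in run 1, -1.84 in run 2 and -1.54 in run 3. Without day 4 replicate A of batch 2 it was at -1.81 and no longer passed (adjusted p = 0.05), and 3 of the 15 probe sets were called in place of 5. The 5 called lower (10.4% of all probe sets) were 4 of actc1b and that of ldb3b, and 0 were called higher (9.80%). Of the other actc1b probe sets, the one near the 3′ end fell by 2.41, the middle one by 2.68, and the other bright one by 2.03 (limma, adjusted p = 0.011, 0.0037 and 0.017). Both 5′ control probe sets had smaller differences that did not pass, at -0.65 and -0.52. The remaining pair of actc1b probe sets never exceeded 88.8 on any array and correlated with the brightest one at -0.21 to 0.03, so they did not follow it. In batch 1 the day 4 value of the brightest probe set was -0.83 ± 1.04 (SE, n = 3 and 2, limma, adjusted p = 0.68). Of the 4 day 4 arrays in batch 2, 3 were labelled poor, and with good arrays alone, which leaves 1 array at day 4, the brightest probe set was at -2.43 and did not pass (limma, adjusted p = 0.22). The ratio of 3′ to middle actc1b control signals was 1.54 to 6.23 on those day 4 arrays and 1.71 to 2.98 on days 0–1.

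**Figure D3:**
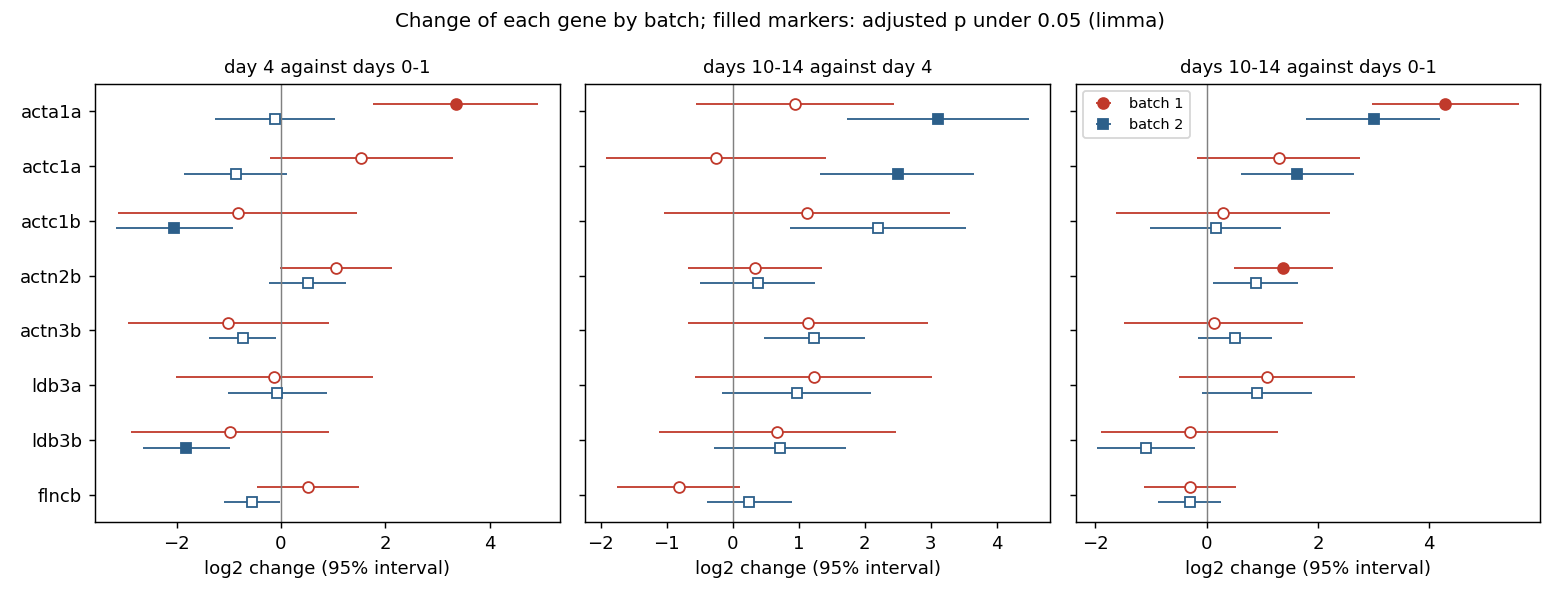
Log2 change with its 95% interval for the brightest probe set of each gene in 3 comparisons, batch 1 as red circles and batch 2 as blue squares, filled where the limma adjusted p was under 0.05. acta1a rose to days 10–14 by 4.29 in batch 1 and 3.00 in batch 2, while at day 4 it had risen by 3.35 in batch 1 and stood at -0.11 in batch 2.

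The ratio of actin copies within each array, taken as a difference of log2(signal + 32), changed toward acta1a. The log2 ratio of acta1a to actc1b was -5.07 on day 0 and -5.19 and -5.88 on day 1 of batch 1, and -3.60 to -0.26 on days 10–14. In batch 2 it went from between -6.01 and -2.74 to between -1.50 and -0.10. Neither batch had overlap between the groups. The mean shifted by 4.00 in batch 1 (two-sided exact permutation test, p = 0.057, the smallest that 3 against 4 arrays allow) and by 3.05 in batch 2 (exact permutation test, p = 0.0043, adjusted over 10 tests p = 0.014). Permuting only within the runs of batch 2 gave a shift of 2.97 (exact permutation p = 0.067, the smallest possible among 30 arrangements). At day 4 of batch 2 the ratio had already shifted by 2.03 (exact permutation test, p = 0.0095, adjusted p = 0.048), in a contrast added after the data were seen. At that day acta1a itself was at -0.11 and actc1b had fallen by 2.04.

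The other actin ratios shifted in the same direction. acta1a gained on actc1a by 2.99 in batch 1 (exact permutation p = 0.057, adjusted p = 0.095) and by 1.51 in batch 2 (exact permutation p = 0.0043, adjusted p = 0.014), with no overlap in either. actc1a gained on actc1b by 1.54 in batch 2 (exact permutation p = 0.0087, adjusted p = 0.022) and by 1.00 in batch 1 (exact permutation p = 0.17, adjusted p = 0.21), and in both batches the groups overlapped. Within runs the actc1a to actc1b shift was 1.43 (exact permutation p = 0.13).

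**Figure D4:**
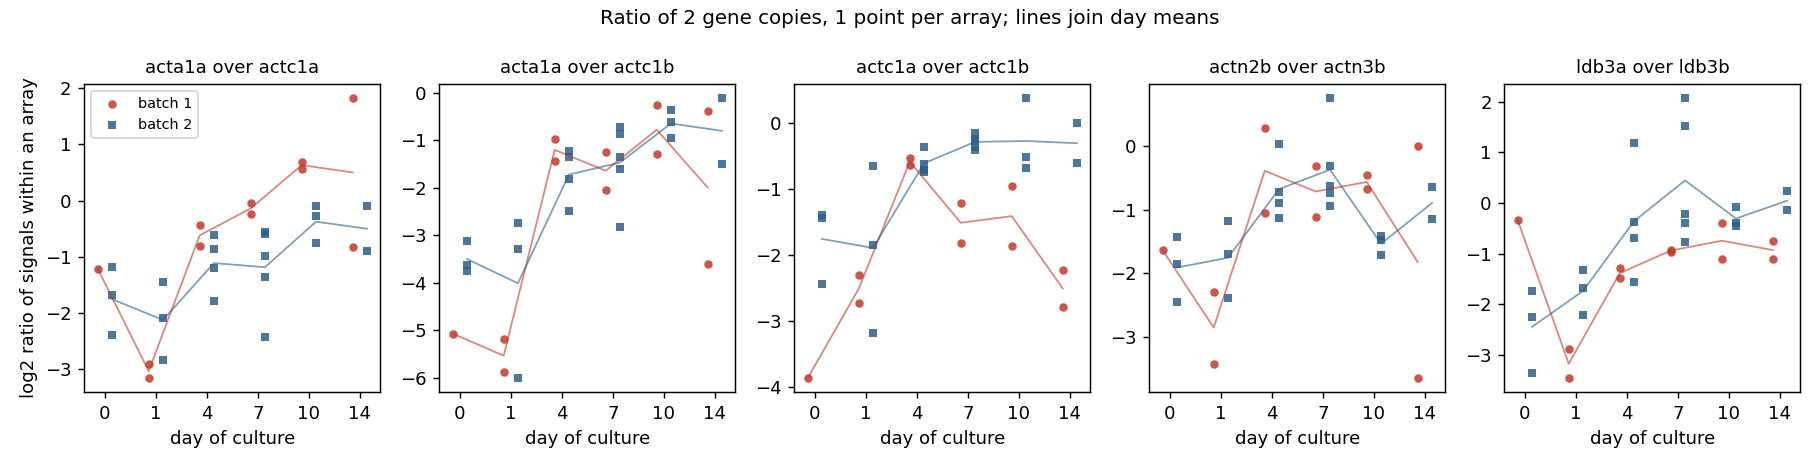
Log2 ratio of the signals of 2 gene copies within each array against the day of culture, with 1 point per array, batch 1 as red circles and batch 2 as blue squares, and lines through the day means. The ratio of acta1a to actc1b lay between -6.01 and -2.74 on days 0–1 and between -3.60 and -0.10 on days 10–14. Only the change of a ratio is read here, since probe sets differ in how brightly they report a transcript.

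The α-actinin genes were dimmer. actn2b encodes the α-actinin found in cardiac and all skeletal fibers in mammals, and its probe set had a mean signal at the 26.8th percentile of those tested. In batch 1 it gave 38.2 on day 0 and 7.0 and 9.5 on day 1, then 24.4 and 145.5 on day 4, 97.9 and 214 on day 7, 86.9 and 78.1 on day 10, and 118 and 97.1 on day 14. All 4 arrays of days 10–14 were above all 3 of days 0–1, by 1.38 ± 0.40 on the log2 scale (SE, limma, adjusted p = 0.027). This call was lost with an offset 4 times as high (0.61, adjusted p = 0.064), with the authors' scaling alone (0.66, adjusted p = 0.19), with each day as a group (1.25, adjusted p = 0.051), and without day 1 replicate A (1.23), day 1 replicate B (1.27), day 10 replicate A (1.41) or day 14 replicate A (1.30). In batch 2 actn2b spanned 7.7 to 93.0 on days 0–1 and 38.5 to 123.5 on days 10–14, a difference of 0.88 ± 0.36 (SE, limma, adjusted p = 0.085). Over the 31 arrays it rose by 1.08 ± 0.27 (SE, limma, adjusted p = 0.002), a call lost with the authors' scaling alone (0.71, adjusted p = 0.064). At no more than 123.5 on any array of days 0–1 or 10–14, its signals did not exceed the highest of the reporter probe sets in batch 2, which were 146 for DsRed1 and 179 for d2EGFP.

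actn3b encodes the α-actinin that in mammals is confined to fast fibers. In batch 1 it was 171 to 386 on days 0–1, 85.5 and 115 on day 4, 251 and 274 on day 7, and 118 to 145 on days 10–14, apart from 1591 on day 14 replicate B. In batch 2 it was 126 to 373.5 on days 0–1, 90.4 to 243 on day 4, and 83.0 to 210 on day 7. It was 476, 373.5 and 358 on day 10, and 127.6 and 124 on day 14. The change to days 10–14 was 0.13 (95% interval -1.48 to 1.73) in batch 1 and 0.51 (-0.16 to 1.18) in batch 2, neither called (limma, adjusted p = 0.92 and 0.27). Without day 14 replicate B the batch 1 value turned to -0.70. The ratio of actn2b to actn3b shifted by 1.26 in batch 1 and 0.55 in batch 2 to days 10–14 (exact permutation p = 0.34 and 0.091, adjusted p = 0.34 and 0.13), with overlapping groups. Within the runs of batch 2 that shift was 0.35 (exact permutation p = 0.6). At day 4 of batch 2 the ratio had shifted by 1.15 (exact permutation p = 0.0095, adjusted p = 0.048), in the contrast added after the data were seen. Within runs the day 4 shift was 1.24 (exact permutation p = 0.037, the smallest possible). Most of those day 4 arrays were labelled poor, and neither gene was called at that day (limma, adjusted p = 0.31 for actn2b and 0.094 for actn3b). In batch 1 the day 4 shift was 2.06 (exact permutation p = 0.2, the smallest possible). Neither batch had overlap between day 4 and days 0–1.

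The ratio of the LDB3 copies shifted in batch 2, although neither copy was called there from days 0–1 to days 10–14. ldb3b gave 225 to 709 on days 0–1 of batch 2 (median 494), 20.1 to 197 on day 4, and 44.9 to 122.5 on day 7. It gave 280, 278 and 259 on day 10, and 80.8 and 87.9 on day 14. At day 4 all 4 arrays were below all 6 of days 0–1, and ldb3b fell by 1.81 ± 0.40 (SE, limma, adjusted p = 0.0044), with differences of -2.01, -1.69 and -1.79 in runs 1, 2 and 3. Since 3 of those 4 arrays were labelled poor, good arrays alone left 1 at day 4, and the call was lost there (-1.86, adjusted p = 0.13). By days 10–14 the value was -1.09 ± 0.42 (SE, limma, adjusted p = 0.064), not called, although it passed with an offset 4 times as high (-0.79, adjusted p = 0.042), among brighter probe sets alone (adjusted p = 0.046), with no run covariate (-1.12, adjusted p = 0.037) and with each day as a group (-1.40, adjusted p = 0.0059). In batch 1 ldb3b was 275, 1032 and 321 on days 0–1, 114 and 385 on day 4, 335 and 448 on day 7, and 180 to 248 on days 10–14 apart from 1590.4 on day 14 replicate B, with a change of -0.30 ± 0.72 (SE, limma, adjusted p = 0.79). Over the 31 arrays ldb3b was at -0.72 ± 0.40 (SE, limma, adjusted p = 0.16), not called. There it passed, as lower, only on arrays labelled good (-0.82, adjusted p = 0.029) and without day 14 replicate B of batch 1 (adjusted p = 0.026).

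ldb3a was not called in either batch with all arrays. From days 0–1 to days 10–14 its range went from 15.7–210.2 to 86.0–725 in batch 1, and from 24.4–199.8 to 76.6–245 in batch 2, so early and late arrays overlapped. The changes were 1.09 ± 0.72 (SE) and 0.90 ± 0.47 (SE) (limma, adjusted p = 0.28 and 0.18). In batch 1 the value ranged from 0.50 to 1.70 with each array left out, and the signal of 725 was on day 14 replicate B, labelled poor. In batch 2 it passed on arrays labelled good (1.21, adjusted p = 0.039) and without day 4 replicate D (1.20, adjusted p = 0.044). Over the 31 arrays it was 0.99 (adjusted p = 0.051), and it passed in 9 of the 31 fits that left out 1 array. The ratio of ldb3a to ldb3b shifted by 1.93 in batch 2, from -3.36 to -1.32 on days 0–1 to -0.45 to 0.23 on days 10–14, with no overlap (exact permutation p = 0.0043, adjusted p = 0.014). Within runs the shift was 1.99 (exact permutation p = 0.067, the smallest possible). In batch 1 it was 1.39 with overlap (exact permutation p = 0.29, adjusted p = 0.32).

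flncb, a copy of the filamin C gene, was among the brighter probe sets. It spanned 377.5 to 1042 on days 0–1, 575 and 1234 on day 4, 294 and 428 on day 7, and 369 to 531 on days 10–14 of batch 1. In batch 2 it spanned 871 to 1788 on days 0–1, 677 to 967 on day 4, 459 to 1111 on day 7, and 648.5 to 1969 on days 10–14. The change to days 10–14 was -0.29 (95% interval -1.12 to 0.53) in batch 1 and -0.30 (-0.87 to 0.26) in batch 2, and was not called (limma, adjusted p = 0.59 and 0.45). The differences at day 4 were 0.52 and -0.56, and neither was called (limma, adjusted p = 0.52 and 0.13).

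Days 10 and 14 of batch 2 differed, and the comparison of these days was added after that was seen. acta1a fell by 2.91 ± 0.54 (SE, n = 3 and 2, limma, adjusted p = 0.01) and actc1a by 2.17 ± 0.55 (SE, limma, adjusted p = 0.035), and with 2 control probe sets of actc1b they made 4 probe sets called lower (1.70%), while 0 were called higher (2.41%). By its brightest probe set, every gene but flncb had both day 14 arrays below all 3 of day 10. The share of all probe sets with such a gap was not counted, so this says nothing about the members as a group. For actn3b, ldb3b, actc1b, ldb3a and actn2b the fitted differences of -1.06, -1.54, -1.85, -0.52 and -0.13 did not pass (limma, adjusted p = 0.15, 0.085, 0.16, 0.73 and 0.92). The day 14 arrays came from runs 3 and 4, and 1 of them was labelled poor. None of the 4 calls held without the run covariate, where acta1a was at -2.58 (adjusted p = 0.13), or without either day 14 array or day 10 replicate C, where acta1a was at -2.91 to -2.73 (adjusted p = 0.055 to 0.13). Without day 10 replicate B, 1 was called. In batch 1 the same contrast gave acta1a 0.63 ± 0.67 (SE, limma, adjusted p = 1), and 0 of the 15 members and 0% of all probe sets were called in either direction (limma, 0 members at an unadjusted p under 0.05). Without day 14 replicate A, 3 probe sets were called higher there, with day 14 replicate B as the only array of that day.

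The change to days 10–14 was also tested for a difference between the batches. None of the 15 probe sets was called (limma, 0 at an unadjusted p under 0.05), against 5.38% of all probe sets. For acta1a the difference was -1.29 (batch 2 minus batch 1, 95% interval -3.13 to 0.54), so the interval spans both no difference and a smaller rise in batch 2.

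Other genes of the thin filament and the Z-disc were counted from lists. Of 16 other measured Z-disc genes, 6 rose and 1 fell in batch 1 to days 10–14, and 3 rose and 0 fell in batch 2. Of all tested probe sets 16.0% rose and 11.8% fell in batch 1, and 12.9% rose and 12.1% fell in batch 2. The same shares are the background of the later list counts to days 10–14. The median change of the 16 Z-disc genes was 1.08 and 0.43, against 0.03 and 0.12 over all probe sets. nexn, which encodes the actin-binding protein nexilin, rose by 2.67 and 1.52 (limma, adjusted p = 0.0011 and 0.00046), and desma, which encodes the intermediate filament protein desmin, rose by 3.41 and 2.68 (limma, adjusted p = 0.0032 and 0.0011). The muscle ubiquitin ligase gene trim63a rose by 3.65 in batch 1 (limma, adjusted p = 0.0013) and was at -0.00 in batch 2 (adjusted p = 1), while trim63b rose by 2.38 in batch 1 (adjusted p = 0.0015) and was at 0.72 in batch 2 (adjusted p = 0.12). xirp2a, of a family of actin-binding Xin repeat proteins, rose by 1.46 in batch 1 (limma, adjusted p = 0.0032) and was at 0.65 in batch 2 (adjusted p = 0.059).

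Of 6 other genes for thin filament assembly, 1 rose in batch 1, and in batch 2 2 rose and 1 fell. tmod4, which encodes a tropomodulin that caps the pointed end of actin filaments, rose by 4.01 and 2.87 (limma, adjusted p = 0.00094 and 2e-05). neb, which encodes nebulin, was at 1.38 and 0.66 (limma, adjusted p = 0.076 and 0.052). mrtfab, which encodes an actin-sensing coactivator of serum response factor, was at -1.04 in batch 1 (limma, adjusted p = 0.088) and fell by 1.99 in batch 2 (adjusted p = 0.0079). srfa, a gene of serum response factor itself, was at -0.16 in batch 1 (adjusted p = 0.79) and rose by 0.96 in batch 2 (adjusted p = 0.035). Of 9 cytoskeletal actin, actinin and filamin pathway genes, 1 rose and 1 fell in batch 1, and 3 rose and 2 fell in batch 2. The cytoplasmic actin genes were near 0, with actb1 at 0.03 and 0.01 and actb2 at -0.42 and -0.10, none called. actn1, which encodes a non-muscle α-actinin, was at 0.95 in batch 1 (limma, adjusted p = 0.06) and rose by 1.71 in batch 2 (adjusted p = 0.00016). Among these genes pfn1 (profilin) was lower, at -1.03 and -2.71 (limma, adjusted p = 0.041 and 2.3e-05), pfn2b was at 0.67 in batch 1 and rose by 1.14 in batch 2 (adjusted p = 0.054 and 0.0021), and tpm4a, a tropomyosin gene, rose by 0.90 in batch 1 and was at 0.59 in batch 2 (adjusted p = 0.031 and 0.18).

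Markers of muscle and of other cells moved over the same days, and their part in the members' values was not tested. The summed signal of 19 skeletal muscle markers was 7764 to 36981 on days 0–1 of batch 2, 1977 to 5922 on day 4 and 4130.3 to 19405 on days 10–14. Its median was lowest at day 4 there. Among them 6 fell at day 4 of batch 2 (10.4% of all tested probe sets) and 1 rose (9.80%), and 6 rose and 3 fell by days 10–14. Falls at day 4 of batch 2 were not confined to muscle markers. Of 9 epidermal markers 4 fell, of 9 leukocyte markers 4, of 4 endothelial markers 3 and of 10 fibroblast markers 3, and 0 of these rose. Of 9 cardiac markers 0 fell and 0 rose. In batch 1 the sum lay between 9567 and 44423 early (median 41023) and between 10350 and 156268 late (median 14923). The median sum was thus lower late there, while 3 markers rose and 0 fell. myog, which encodes the transcription factor myogenin, rose by 2.24 and 1.70 (limma, adjusted p = 0.0027 and 0.0046), cav3 (caveolin 3) rose by 2.18 in batch 1 (adjusted p = 0.0046) and was at 0.64 in batch 2 (adjusted p = 0.14), and pax7a was at -0.98 and -0.02 (adjusted p = 0.061 and 0.97). The 3 markers that fell by days 10–14 of batch 2 were pvalb1 at -2.79, ckmb at -2.40 and pvalb2 at -1.59 (limma, adjusted p = 0.0043, 0.006 and, after rounding, 0.05). In batch 1 these were at -3.03, -1.86 and -2.67, none called (limma, adjusted p = 0.22, 0.2 and 0.26). Of 9 cardiac markers, myh7, a slow and cardiac myosin heavy chain gene, alone rose in batch 1, by 5.89 (limma, adjusted p = 0.00049), and by 3.95 in batch 2 (adjusted p = 9.4e-06), where 2 rose. The other 3 cardiac genes named by the rule, myl7, cmlc1 and tnnc1a, were not called in either batch, at -0.49 to 0.87. The summed signal of the cardiac markers went from 282–618 to 3705–6015 in batch 1, and from 370.3–716 to 1155–6964 in batch 2. Their median log2 change was 0.08 and 0.39, against 0.03 and 0.12 over all probe sets. The sums, which include myh7, thus do not stand for the list as a whole.

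Of 9 leukocyte markers, 6 fell in batch 1 and 9 in batch 2, and their summed signal went from 49147–92702 to 1956–21836 in batch 1, and from 41800.1–68871 to 1831–10527 in batch 2. lyz, a lysozyme gene, was at -5.63 and -4.55 (limma, adjusted p = 0.0099 and 2.9e-05), ptprc, the CD45 gene, was at -2.94 and -4.20 (adjusted p = 0.0068 and 3e-06), mpx at -4.02 and -2.03 (adjusted p = 0.007 and 0.00067), and cd74a at -3.30 and -4.96 (adjusted p = 0.01 and 5.8e-05), all lower. Of 4 endothelial markers, 3 fell in each batch, with early and late sums of 1408–3333 and 349–496 in batch 1 and 1463–7253 and 502–854 in batch 2. These were kdrl at -2.40 and -3.15, fli1 at -2.02 and -2.12, and tek at -1.09 and -2.31 (limma, adjusted p = 0.047 or lower), while tie1 was at -0.01 and 0.02. Of 10 fibroblast and connective tissue markers, 5 rose in each batch, and their sum went from 45156–87218 to 105701–133312 in batch 1, and from 31735–114141 to 152204–196742 in batch 2. fn1b, a fibronectin gene, rose by 3.36 and 3.24, fn1a by 2.37 and 2.59, dcn by 1.38 and 2.27, and col5a2a by 1.15 and 1.51 (limma, adjusted p = 0.014 or lower).

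Of 5 smooth muscle markers, 2 rose and 1 fell in batch 1, and 3 rose in batch 2, with early and late sums of 2286–2404 and 5409–8490.1 in batch 1 and 2775–5825 and 17123–29529 in batch 2. tagln (transgelin) rose by 2.52 and 3.76 (limma, adjusted p = 0.0015 and 9.3e-07), mylka fell by 1.59 in batch 1 (adjusted p = 0.0038) and was at -0.65 in batch 2 (adjusted p = 0.33), and desma, the desmin gene, was the other that rose in batch 1. The same desma probe set is also counted in the Z-disc and skeletal muscle lists, and its signal is part of the smooth muscle sums. acta2, the smooth muscle α-actin gene, was at -0.22 in batch 1 (limma, adjusted p = 0.81) and rose by 1.75 in batch 2 (adjusted p = 0.012). Of 9 epidermal markers, 2 rose and 1 fell in batch 1, and 1 rose and 2 fell in batch 2, with early and late sums of 44898–50944 and 65891–80119.8 in batch 1 and 14898–65663 and 48411–57670.5 in batch 2. krt4, a keratin gene, rose by 1.61 in batch 1 and was at -0.03 in batch 2 (limma, adjusted p = 0.014 and 0.97), icn rose by 0.90 and 1.08 (0.041 and 0.02), epcam was lower at -2.72 and -4.88 (0.037 and 2.6e-06), and cdh1 was at -1.10 and -1.21 (0.087 and 0.059). None of the signals of members or listed genes was at 0.

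The members did not share 1 course across arrays. The following correlations of log2 signal, over 11 arrays of batch 1 and 20 of batch 2, are descriptions, since arrays share days and runs. actc1b correlated with actn3b at 0.84 and 0.83, with ldb3b at 0.82 and 0.69 and with ldb3a at 0.90 and 0.50, but with acta1a at 0.31 and 0.45. All batch 1 values include day 14 replicate B, labelled poor, on which actc1b, actn3b and ldb3b stood far above the other arrays of days 10–14. What the correlations would be without that array was not computed. acta1a correlated with actc1a at 0.72 and 0.85. flncb had its highest correlation with another member at -0.17 in batch 1 and 0.32 in batch 2, both with ldb3b. Outside the members, acta1a was most like tnni2b.1 (0.96 and 0.95), jam3b (0.91 and 0.95) and desma (0.91 and 0.91), of which the first encodes a troponin I and the second a junctional adhesion molecule. actc1b was most like tnnt3b (0.95 and 0.93), tnnc2.2 (0.91 and 0.89) and mylpfa (0.93 and 0.87), which encode troponin T, troponin C and a myosin light chain of fast fibers.

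actn3b was also most like tnnc2.2 (0.86 and 0.85) and tnnt3b (0.81 and 0.78), followed by rgrb (0.88 and 0.76), and ldb3b was most like mylpfa (0.87 and 0.86), the muscle creatine kinase gene ckmb (0.86 and 0.91) and mybphb (0.91 and 0.84). actc1a was most like pdlim7 (0.89 and 0.84), which encodes a PDZ and LIM domain protein, tmem38a (0.83 and 0.88) and smyhc1 (0.82 and 0.82), a slow myosin heavy chain gene. ldb3a was most like faxdc2 (0.76 and 0.73), pdlim7 (0.87 and 0.72) and hsd11b1la (0.70 and 0.79). For actn2b the genes were rapgef1b (0.76 and 0.83), prss59 (0.79 and 0.74) and ppp1r3da (0.82 and 0.73). For flncb they were shroom4, wu:fj05g07 and alpl, at 0.69, 0.57 and 0.60 in batch 1 and 0.59, 0.58 and 0.56 in batch 2, the lowest of the 8 genes.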

How the data were processed

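The deposited values are linear signal intensities per probe set, made by the authors with MAS5 (version not given in the sources used here) with each array scaled so that its mean, less 2% at either end, is 500. That held on every array, although for batch 2 the labels name a target of 1500. All columns were matched to a sample by label. Of 115 control probe sets, 111 were left out and the 4 annotated to actc1b kept, so 15506 of 15617 were tested. Quantile normalization took as its target the averaged quantiles of the 11 batch 1 arrays used, and log2 was taken after adding an offset of 32.

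Probe set symbols came from GEO's platform annotation, brought up to date by Entrez gene ID in 10715 cases. A single symbol was held by 10799, several by 135 and none by 4572. Each gene was represented by its brightest probe set.

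Linear models (lmFit, eBayes; limma 3.58.1, R 4.3.3) were fitted in each batch over 4 groups of days, with hybridization run as a covariate in batch 2 and over the 31 arrays, and calls were made where the two-sided p, adjusted by Benjamini-Hochberg over all probe sets tested, was under 0.05. The fits had 7, 13 and 23 residual degrees of freedom. Differences between batches were tested with day group by batch and run in the model, with 20 residual degrees of freedom. For day 14 against day 10 each day was a group, which left 5 in batch 1 and 11 in batch 2. Ratios of gene copies were compared by exact permutation tests over arrays (Python 3.11.15), which were checked against scipy 1.17.1. The limma fits were tested on simulated data. Members, pairs and gene lists were chosen with earlier results of these data known. From each list, up to 4 genes with the smallest p to days 10–14 in batch 1 were named, and for each member the 3 genes with the highest smaller of 2 correlations. Genes named beyond this were chosen after their values were seen. Alternatives were offsets 4 times as low or high, the authors' scaling alone, brighter probe sets, a replicate block, good arrays, no run covariate, each day as a group, other probe sets and leaving out each array. The number of arrays limits the precision.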

Additional observations from a re-analysis of the deposited data

Results flagged for a closer look

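Within groups of 4 to 6 arrays, 75 sets of signals were searched for an array far from the rest, and 9 were found. The nominal chance rate was about 1 in 20. The sets share arrays and many are of 1 gene, so the count cannot be weighed against that rate. On day 14 replicate B of batch 1, labelled poor, actn3b was at 1591 against 118 to 145 on the other 3 arrays of days 10–14, and ldb3b at 1590.4 against 180 to 248. The 5′ control probe sets of actc1b were at 2062 against 151 to 173 and at 9594 against 1247 to 1657 there. On day 7 replicate E of batch 2, actc1a was at 921 against 2506 to 3108, and the bright actc1b probe sets were at 986 against 2469 to 3373 and at 1106 against 3007 to 3672. Dim actc1b probe sets were at 42.5 against 10.3 to 14.8 on that array, and at 67.1 against 18.8 to 23.1 on day 10 replicate A of batch 1. Since 8 of the 15 probe sets are of actc1b, these findings are not separate.

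Reporter probe sets, which enter no comparison, gave signal in batch 1. On the arrays used, DsRed1 reached 21025 and was above every array of batch 2, where it lay between 7.31 and 146, on 8 arrays of batch 1. d2EGFP reached 17573 on day 4 replicate A of batch 1, against 14.4 to 179 in batch 2.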

How the results depend on the processing

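Of 15 member probe sets, 2 were called in batch 1 from days 0–1 to days 10–14. That count was 1 with an offset 4 times as high, with the authors' scaling alone and with each day as a group. With each array left out in turn it was 1 to 2. Among brighter probe sets, those with a mean signal above the median, it was also 1, but actn2b was dimmer and was not tested there. Counts among brighter probe sets are thus of fewer than 15 members. The batch 2 count was 4 in place of 2 on arrays labelled good, where 4384 of all probe sets were called in place of 3879. With each array left out it was 1 to 3. Counts in this paragraph are of members, mostly without the share of all probe sets beside them, so they do not set the group apart. Over the 31 arrays the count to days 10–14 was 2 to 5 in place of 3 with each array left out. It was 5 without day 14 replicate B of batch 1, where 3 were called higher and 2 lower. The main fit had 0 lower, and ldb3b was among those called lower without that array (limma, adjusted p = 0.026). At day 4 the count was 0 to 1 in batch 1, with 0 without day 1 replicate A or day 4 replicate B. In batch 2 it was 3 to 6 in place of 5 with each array left out. Arrays labelled good left 1 at day 4, so no day 4 count is given for them. From day 4 to days 10–14 of batch 2 the count was 7 in place of 2 among brighter probe sets, where 895 of all brighter probe sets were called. With each array left out it was 0 to 7, with 0 without day 4 replicate A or day 10 replicate A. The added test between batches at day 4 gave 0 to 1. From day 10 to day 14 the count was 0 to 3 in batch 1. In batch 2 it was 2 in place of 4 with an offset of 8 or among brighter probe sets, 0 on arrays labelled good or with no run covariate, and 0 to 6 with each array left out. Copy ratios to days 10–14 kept their sign with other offsets, scaling or probe sets, on good arrays and with each array left out. In batch 2 they also kept their side of the threshold. In batch 1 the exact permutation test cannot go below p = 0.057, so its side of the threshold was fixed in advance. The exact permutation test within runs of batch 2 cannot go below p = 0.067, so it could not pass, and day 4 ratios were not run under alternatives. The cause of these changes was not tested.

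Changes to days 10–14 that turned sign were not called. In batch 1, actn3b was at -0.29 with the authors' scaling alone and -0.70 on arrays labelled good, and -0.70 to 0.46 with each array left out. actc1b was at -0.09 and -0.50 there, and -0.50 to 0.73. ldb3b ranged from -0.98 to 0.26 and flncb from -0.58 to 0.11, positive without day 1 replicate A. In batch 2, actc1b was at -0.06 with the authors' scaling alone, -0.20 with no run covariate, -0.21 with each day as a group and -0.38 to 0.48 with each array left out. Over the 31 arrays it was at -0.12 and -0.05 under the former pair and -0.16 to 0.33.

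Replicate letters were not taken to pair the samples. The labels name no shared litter, batch or day for a letter, and 0 of 20 same-letter pairs of batch 1 (-0.33 to 0.07) and 11 of 41 of batch 2 (-0.68 to 0.61) correlated above 0.1. With the letter as a replicate block, the counts to days 10–14 stayed at 2 in both batches and 3 over the 31 arrays, and that from day 10 to day 14 of batch 2 was 0 in place of 4.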
